A study of Mus musculus with 12 samples.

Results

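Gene expression in whole testes of Xap5 cKO mice was compared with that in WT testes at postnatal day 16 (P16). The comparison was chosen by genotype and tissue and takes in 6 of the 12 RNA-seq libraries of the series, 3 of Xap5 cKO and 3 of WT testes. It covers all 23502 gene entries of the deposited testis table, of which 16821 had enough counts to be tested. The Xap5 cKO mice carried a floxed Xap5 allele, made on the C57BL/6J background, together with Stra8-EGFPCre, a Cre that is placed at the Stra8 gene and acts in male germ cells from before meiosis. The controls are labelled WT. Where the study compares the appearance of this line its controls are Xap5 fl/Y males, and whether the sequenced WT mice had that genotype is not given in the sources used here. Somatic cells are not targeted by this Cre, and the RNA of the whole organ was read. Xap5 is listed in the table as Fam50a and its relative Xap5l as Fam50b.

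The mouse testis holds germ cells at successive stages beside somatic cells. Spermatogonia divide by mitosis, begin meiosis in response to retinoic acid, pair and recombine their chromosomes through the leptotene, zygotene and pachytene stages, and then form haploid spermatids that build the sperm. In pachytene cells the X and Y chromosomes are silenced and enclosed in the sex body. Sertoli cells nurse the germ cells inside the tubule, Leydig cells between the tubules make androgens, and macrophages, vessels and stroma fill the remaining space.

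Each library held between 32251198 and 36759054 counts. Counts per entry are given below as deposited, in the order of replicates 1, 2 and 3, and log2 fold changes are those of Xap5 cKO against WT after TMM normalization. A gene is said to have risen or fallen where its adjusted p, from the quasi-likelihood test of edgeR after Benjamini-Hochberg correction, was under 0.05 and its fold change above 2. By this rule 1837 genes, 10.9% of those tested, fell and 698 genes, 4.15%, rose, and these shares are the background for every count below. At an adjusted p under 0.05 without a fold threshold the shares were 28.1% lower and 25.0% higher. The median log2 fold change over all tested genes was -0.01. The targeted gene, Fam50a, had 819, 811 and 988 counts in WT testes against 673, 616 and 651 in Xap5 cKO, which is -0.33 ± 0.126 (standard error) on the log2 scale (adjusted p = 0.0495 by edgeR's quasi-likelihood test). The groups did not overlap, but the difference stayed below 2-fold, and a count for the whole gene shows neither which part was deleted nor which cells the transcripts came from. WT replicate 3 stood apart. On the first principal component, which held 83.6% of the variance, it lay at 32.1, WT replicates 1 and 2 at 60.5 and 60.6, and the Xap5 cKO libraries between -53.8 and -48.6. Where a list's count moved by over 1.5 times without that library, the count or the genes concerned are given below.

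From spermatogonia to pachytene spermatocytes the germ-cell lists lay progressively further below the median of all genes, whereas the lists for Sertoli, Leydig, peritubular myoid, endothelial, stromal and macrophage cells lay above it. The median log2 fold change was -0.51 for 24 genes of undifferentiated spermatogonia, -0.78 for 10 genes of differentiating spermatogonia, -1.34 for 24 genes of meiotic entry to zygotene, -2.67 for 23 pachytene genes and -1.92 for the 15 of 27 round spermatid genes that could be tested. Of these, 4, 4, 21, 19 and 9 fell. A single gene rose, T in the undifferentiated list. In whole testes, fewer cells of a type and less RNA per cell cannot be told apart. The level of a list in each library was summed over its genes in counts scaled to library size (CPM). The undifferentiated list summed to 630, 656 and 647 CPM in WT testes against 483, 481 and 497 CPM in Xap5 cKO. The pachytene list summed to 4358, 4296 and 2426 CPM in WT testes against 543, 560 and 744 CPM in Xap5 cKO. The round spermatid list summed to 550, 470 and 202 CPM against 46.7, 55.9 and 57.0 CPM. In both of the later lists WT replicate 3 was the lowest WT library and still lay above every Xap5 cKO library.

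**Figure D1:**
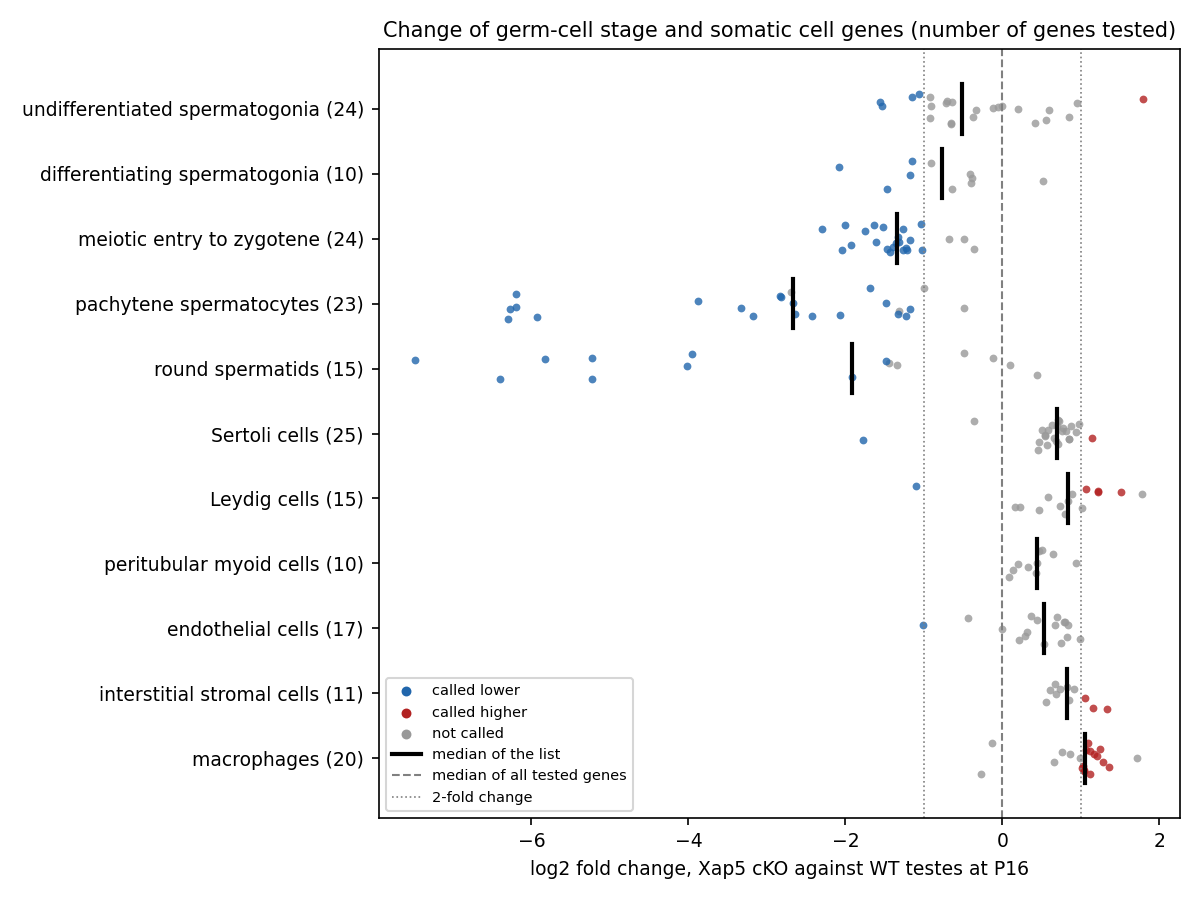
Each point is a tested gene, placed by its log2 fold change in Xap5 cKO against WT testes (x axis) in the row of its germ-cell stage or somatic cell list (y axis, number tested in brackets). Blue genes were called lower, red genes higher and grey genes neither, black bars are list medians, the dashed line is the median of all tested genes and dotted lines mark a 2-fold change. Medians fall from -0.51 in undifferentiated spermatogonia to -2.67 in pachytene spermatocytes, and those of the 6 somatic lists plotted lie between 0.43 and 1.05.

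**Figure D2:**
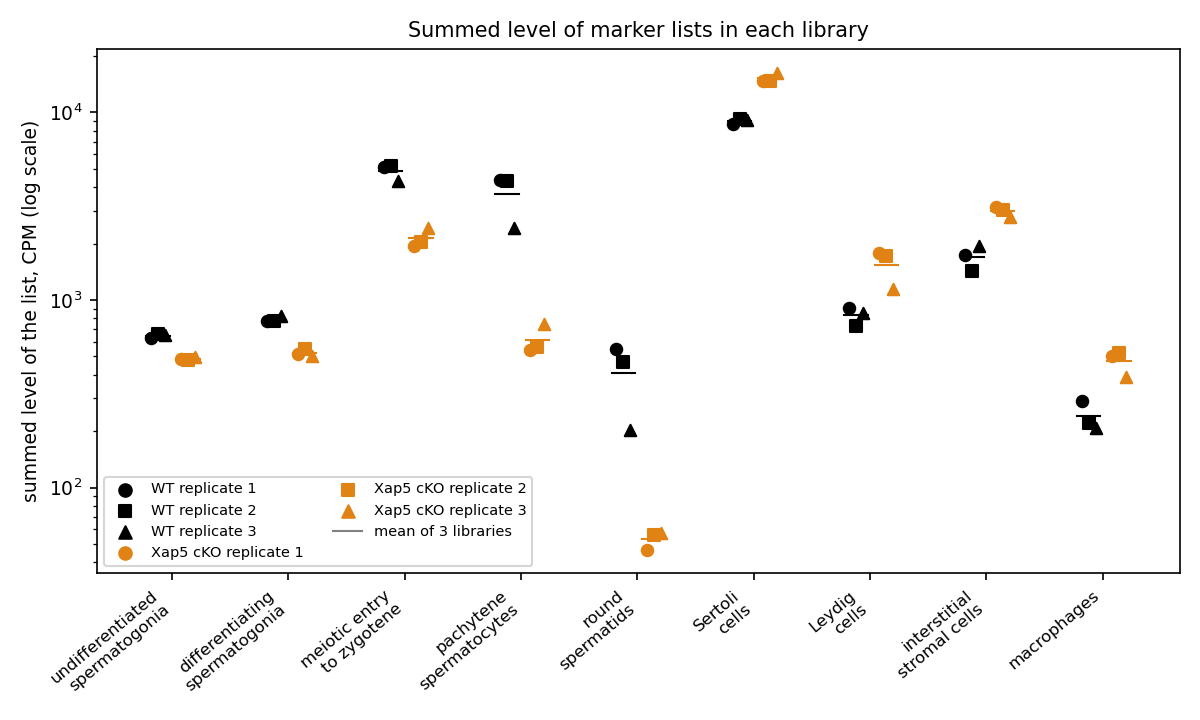
Summed level of each marker list in CPM (y axis, log scale) in each of the 3 WT (black) and 3 Xap5 cKO (orange) libraries, with symbols for the replicate and lines for the group mean. The pachytene and round spermatid lists are lower in all Xap5 cKO libraries, with WT replicate 3 the lowest WT library, and the Sertoli, stromal and macrophage lists are higher in all of them.

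Among markers of undifferentiated spermatogonia, the calls pointed to different members. Upp1, a uridine phosphorylase, had 178, 156 and 201 counts in WT testes against 40, 71 and 59 in Xap5 cKO (log2 fold change -1.56, standard error 0.282). Id4, a helix-loop-helix inhibitor of stem-like spermatogonia, had 2650, 2810 and 1810 counts against 698, 899 and 750 (-1.54), with the groups apart. Its exons overlap genes on the opposite strand. Sall4 (-1.15) and Lin28a (-1.07), a transcription factor and an RNA-binding protein of early germ cells, also fell, but Lin28a reached only -0.93 without WT replicate 3 and Sall4 was not called without Xap5 cKO replicate 3. The receptor gene Gfra1 and the transcription factor gene Etv5, both tied to signalling by GDNF, passed the adjusted p in the other direction without reaching 2-fold. Gfra1 had 306, 339 and 357 counts in WT testes against 467, 365 and 543 in Xap5 cKO (0.56), and Etv5 had 1840, 1710 and 1678 against 2769, 3665 and 3063 (0.95). T, which encodes brachyury, rose from 10, 16 and 17 to 35, 48 and 57 counts (1.79). The remaining markers of this stage, such as Zbtb16 (-0.66), Ret (-0.06) and Foxo1 (-0.01), were not called. In the differentiating list Dmrtb1, a regulator of the passage from mitosis to meiosis, fell most, from 3567, 3293 and 2925 counts to 658, 741 and 764 (-2.09, standard error 0.114). Ccnd1, encoding cyclin D1, had 2336, 2420 and 3142 counts against 891, 1014 and 754 (-1.47). Sohlh1 (-1.15) and Crabp1 (-1.17) were the other calls. Kit, the receptor that marks differentiating spermatogonia, was lower without reaching 2-fold (-0.65), and Ccnd2 was higher (0.52).

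Entry into meiosis was represented by Stra8, the retinoic acid-induced gene that starts the meiotic programme. It had 4115, 4532 and 4074 counts in WT testes against 1050, 1124 and 942 in Xap5 cKO, or -1.93 on the log2 scale, with a standard error of 0.0848 (adjusted p = 6.8e-06 by edgeR's quasi-likelihood test). The Cre of the Xap5 cKO mice is placed at this same gene, and whether the WT mice carried it is not given. An effect of the Cre allele on Stra8 counts was not tested apart from that of the Xap5 deletion. Every gene of the list passed the adjusted p in the lower direction, and 23 of 24 had Xap5 cKO libraries that did not overlap the WT libraries, against 32.4% of all tested genes that were lower in this way. The largest fall was that of Terb1, which attaches telomeres to the nuclear envelope, from 1717, 1842 and 1107 to 286, 309 and 291 counts (-2.30). The members differed in size. Sycp3, a lateral element protein of the synaptonemal complex, had 15797, 17605 and 14587 counts in WT testes against 9496, 10977 and 14449 in Xap5 cKO, only -0.36 on the log2 scale (adjusted p = 0.049 by edgeR's quasi-likelihood test). After normalization its groups overlapped, through Xap5 cKO replicate 3. Rad51ap2 (-0.49) and Rec114 (-0.69) likewise stayed below 2-fold.

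Pachytene genes were spread widely, with quartiles of -3.60 and -1.41. Piwil1, which binds pachytene piRNAs, had 15140, 17286 and 7653 counts in WT testes against 165, 141 and 172 in Xap5 cKO (log2 fold change -6.30, standard error 0.33). Tcp11 fell from 2306, 2146 and 729 to 24, 23 and 16 counts (-6.27). Spata16 fell from 1417, 1374 and 359 to 16, 2 and 22 (-6.20). Ldhc, the germ-cell lactate dehydrogenase, fell from 19385, 18407 and 7648 to 109, 195 and 282 (-6.19). In all of these WT replicate 3 held less than the other WT libraries and far more than any Xap5 cKO library. Hspa2, a heat-shock protein of spermatocytes, fell from 21459, 23523 and 13757 to 3635, 3813 and 5632 counts (-2.07), and Mybl1, a regulator of pachytene transcription, was lower without reaching 2-fold (-0.50). Pou5f2 and H1f6 had fitted values of -2.69 and -1.31 and did not pass the adjusted p.

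The round spermatid list is named for a stage, and its counts do not show that such cells were present at P16. Of the round spermatid genes, Acr, which encodes the acrosomal protease acrosin, had 815, 954 and 403 counts in WT testes against 2, 0 and 9 in Xap5 cKO (log2 fold change -7.48, standard error 0.654). Dpy19l2, needed for the sperm head, fell from 1319, 1184 and 473 to 7, 18 and 8 counts (-6.40). Crisp2, a protein of the acrosome and tail, fell from 5982, 5049 and 1639 to 99, 101 and 119 (-5.23). The genes that rise latest were near the floor in both genotypes. Prm2 and Smcp, which encode a protamine and a mitochondrial capsule protein of elongated spermatids, were at 0 counts in all libraries, and 3 of 17 elongating spermatid genes could be tested. Among these Akap3, an anchoring protein of the fibrous sheath, fell from 121, 199 and 148 to 32, 43 and 32 counts (-2.02), while Tsga8 had 76, 76 and 30 counts against 73, 127 and 198 (1.21) and was not called. Of the round spermatid list, Spaca1, an acrosomal membrane protein, did not pass the test (0.44).

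The genes that carry out meiotic recombination fell as groups. In the list for double-strand break formation 8 of 9 genes fell (median -1.33). Lists share members, so their counts are not separate results. All 9 of these genes are also in another list, as are 23 of the 24 meiotic entry genes and 18 of the 23 pachytene genes. Spo11, the nuclease that makes the breaks, had 1724, 1905 and 1440 counts in WT testes against 196, 218 and 296 in Xap5 cKO (-2.74, standard error 0.181), and Prdm9, which places them, had 1756, 1805 and 1577 against 652, 721 and 630 (-1.27). In the list for recombination and repair 21 of 30 fell (median -1.33) and none rose. Cntd1, a cyclin-like factor of crossover formation, fell most, from 6643, 7243 and 5243 to 752, 986 and 1175 counts (-2.62). The crossover genes Hfm1 (-2.21), Ccnb1ip1 (-1.91) and Rnf212 (-1.90) fell by more than the recombinase gene Dmc1 (-1.44), although the differences between genes were not tested. Among repair genes that dividing somatic cells also use, Brca1 (-0.94), Exo1 (-0.64) and Mus81 (-0.17) did not reach 2-fold, and Sfr1 lay at 0.11.

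Of 16 genes of the synaptonemal complex and chromosome axis 11 fell (median -1.24), and all 16 passed the adjusted p in that direction. Syce1, a central element protein, had 4239, 4565 and 2954 counts in WT testes against 951, 1263 and 1243 in Xap5 cKO (-1.68). Sycp2l had 18, 22 and 12 counts in WT and 0 in every Xap5 cKO library. Of the cohesin genes in this list, Rec8 (-0.58) and Rad21l (-0.95) stayed below 2-fold, whereas Stag3 (-1.47) and Smc1b (-1.40) fell. For telomere attachment 5 of 8 genes fell (median -1.74), among them Spdya, an activator of CDK2, from 3171, 3299 and 2479 to 521, 710 and 606 counts (-2.19). Sun2, which many cell types use to anchor nuclei, was higher without reaching 2-fold (0.76). The sex body list was mixed, with 4 of 15 lower and 2 higher (median -0.63). Atr, the kinase that spreads silencing over the sex chromosomes, had 22533, 24377 and 19062 counts against 6502, 6330 and 6607 (-1.67), and Mdc1, which carries the signal along chromatin, had 8807, 9477 and 7665 against 2752, 2740 and 2343 (-1.63). The 2 that rose, Zfy1 and Zfy2, are Y-linked genes that silencing normally shuts off. Scml2, a Polycomb protein of the sex body, did not pass the adjusted p (0.02).

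**Figure D3:**
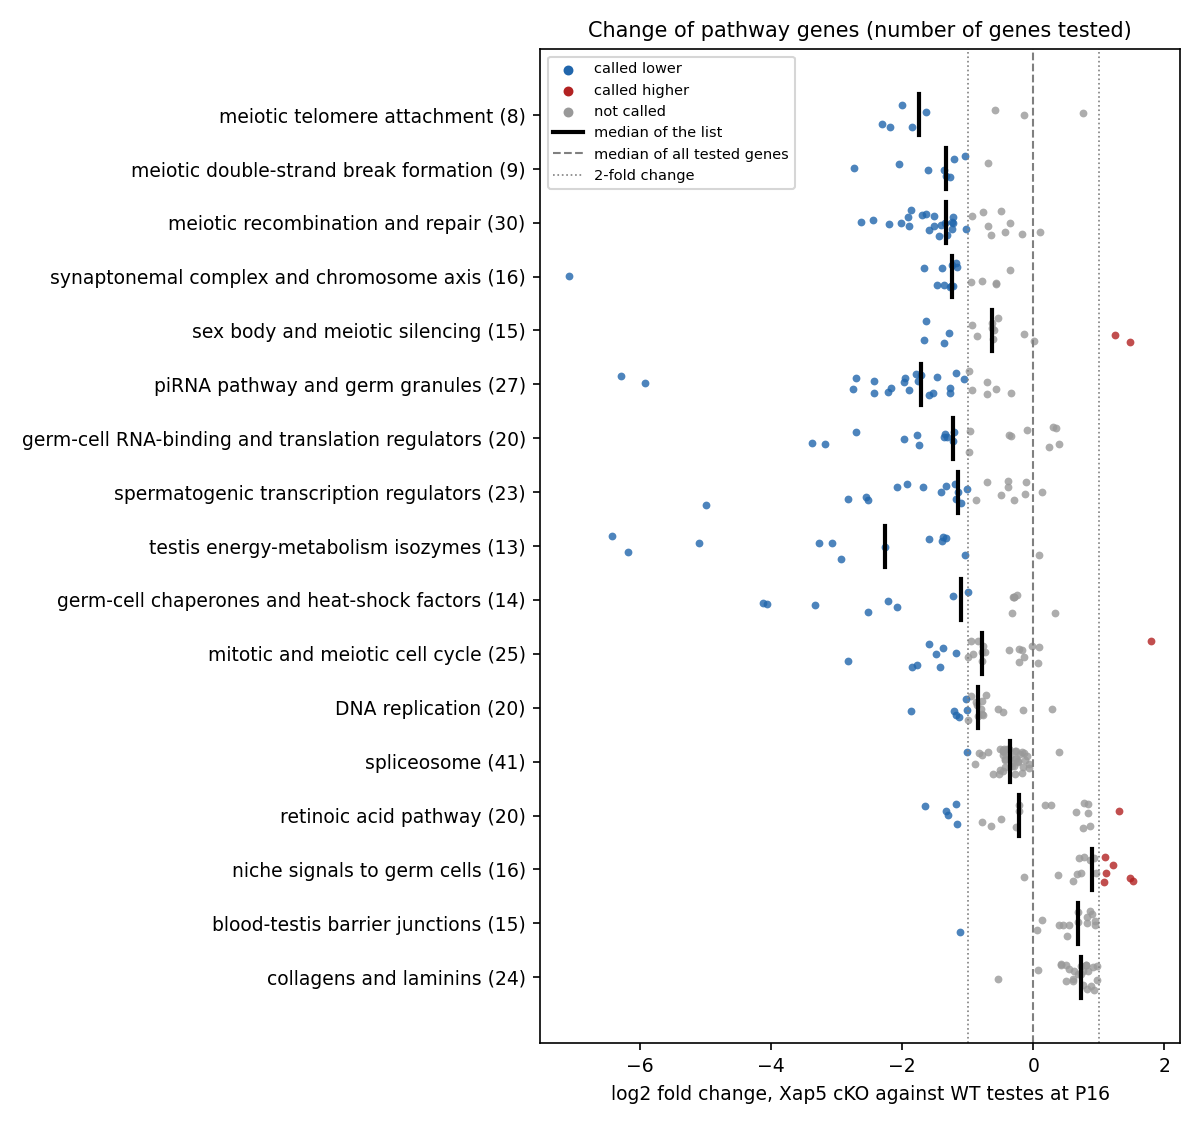
Each point is a tested gene, placed by its log2 fold change in Xap5 cKO against WT testes (x axis) in the row of its pathway list (y axis, number tested in brackets), with colours, bars and lines as in the plot of stage lists. The medians run from -2.27 for energy-metabolism isozymes to 0.90 for niche signals.

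In the piRNA pathway, which silences transposons in germ cells, all 27 genes passed the adjusted p in the lower direction and 21 fell (median -1.71). In all 27 the Xap5 cKO libraries lay below every WT library, as they did in 32.4% of all tested genes. Falls were deepest for genes of the pachytene phase, Piwil1 (above) and Tdrd6, a Tudor-domain protein of the chromatoid body, which went from 3817, 3752 and 956 to 36, 37 and 59 counts (-5.92). Tdrd5 (-2.75), Ddx25 (-2.70) and Tdrd1 (-2.44) followed. Ddx4, a helicase of germ granules, had 17859, 20130 and 16253 counts in WT testes against 3420, 3592 and 3921 in Xap5 cKO (-2.21), and Piwil2 had -1.97. The smallest differences were in other members. Piwil4, active in fetal germ cells, had 168, 215 and 290 against 81, 132 and 105 (-0.98), Mov10l1 reached -0.93 and Fkbp6 -0.35, all below the fold threshold. Among 20 RNA-binding and translation regulators of germ cells 11 fell (median -1.22). Pabpc6, a poly(A)-binding protein, fell most, from 2173, 2037 and 807 to 153, 148 and 153 counts (-3.38). Ybx2, which stores mRNAs in spermatids, went from 12522, 13590 and 7197 to 891, 984 and 1565 (-3.18), and Meioc, which stabilizes the meiotic programme, from 13688, 14823 and 12131 to 3569, 3866 and 3915 (-1.75). Dazl stayed just below 2-fold (-0.96). Msi1 and Msi2, also expressed outside the germ line, were higher without reaching it (0.39 and 0.35).

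Transcription regulators of spermatogenesis included 14 that fell among 23 tested (median -1.15). Gtf2a1l, a germ-cell TFIIA subunit, had 993, 885 and 454 counts in WT testes against 14, 33 and 22 in Xap5 cKO (-4.99). Kctd19 (-2.82) and Hsf5 (-2.52), both active in pachytene cells, and Tcfl5 (-1.69) fell as well. Sox30 had 1630, 1787 and 1176 counts against 471, 482 and 674 (-1.40), and Crem, a CREB-family activator of spermatid genes, had 1801, 1843 and 1646 against 602, 966 and 599 (-1.20). Taf7l did not pass the test (0.13) and Tbpl1 was lower by less than 2-fold (-0.88). Among 12 regulators of cilia genes 6 fell (median -1.06). The RFX factors were split. Rfx4 went from 922, 1048 and 518 to 6, 7 and 4 counts (-7.07, standard error 0.386), Rfx8 from 548, 530 and 323 to 22, 8 and 17 (-4.79), and Rfx2 from 4243, 4043 and 2613 to 551, 502 and 696 (-2.55). By contrast Rfx1 (-0.08), Rfx3 (-0.17) and Rfx7 (-0.16) did not pass the adjusted p, and Rfx5 reached -0.71. Foxn4 fell (-1.65). Foxj1 had few counts, 84, 70 and 98 in WT testes against 44, 16 and 43 in Xap5 cKO (-1.18, adjusted p = 0.0474 by edgeR's quasi-likelihood test), and its call was lost with any single library left out, for example at an adjusted p of 0.104 by the same edgeR test without WT replicate 3. Without that library 4 regulators of this list were lower and 1 was higher. The latter was Gmnc, a gene of the geminin family that drives the formation of multiple cilia, with 5, 0 and 14 counts in WT testes against 35, 45 and 15 in Xap5 cKO (2.39, adjusted p = 0.0567 by edgeR's quasi-likelihood test with all libraries). DESeq2 also called 1 regulator higher. Of 19 genes taken from the study, some of them from its Xap5l KO sperm experiment, 11 fell and 1, Sox5, rose (median -1.18). The study picked part of these from the same libraries, so that count is no independent evidence. Cfap206, an axonemal gene, fell most after Rfx4, from 3268, 3007 and 1361 to 29, 25 and 33 counts (-6.36), and Ift81, of intraflagellar transport, fell from 2340, 2561 and 1993 to 985, 1012 and 1119 (-1.05). Sox5 went from 115, 106 and 139 to 225, 228 and 223 (1.004) and was not called without WT replicate 2 or Xap5 cKO replicate 1. Tulp2 was higher by less than 2-fold (0.58). Celf1 (-0.10) and Faim (-0.16) were not called.

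Promoter sequences of RefSeq (GRCm38.p6, 250 bases before to 50 bases after the start) are shown for 3 of the genes above and for Fam50a, because Stra8, Piwil1 and Rfx2 fell among the meiotic entry, pachytene and transcription regulator genes and because the letters of 3 known elements could be looked for in them. These were CCCCGCCC, a GC box bound by Sp and KLF factors, TGACGTCA, the palindrome bound by CREB-family factors, and CNCCTCAG, found at promoters bound by the STRA8 protein, each on both strands. The GC box is also the sequence that the study reports as common to its motifs under Xap5 and Xap5l binding peaks. Capitals mark matches.
Rfx2, chr17:56830959-56831258, minus strand: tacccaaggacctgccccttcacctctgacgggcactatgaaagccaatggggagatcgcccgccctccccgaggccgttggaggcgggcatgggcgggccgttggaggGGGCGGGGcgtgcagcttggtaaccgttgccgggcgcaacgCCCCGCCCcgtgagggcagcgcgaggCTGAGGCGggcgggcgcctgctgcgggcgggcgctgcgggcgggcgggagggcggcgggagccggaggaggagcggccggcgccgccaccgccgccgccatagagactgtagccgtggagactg
Piwil1, chr5:128735996-128736295, plus strand: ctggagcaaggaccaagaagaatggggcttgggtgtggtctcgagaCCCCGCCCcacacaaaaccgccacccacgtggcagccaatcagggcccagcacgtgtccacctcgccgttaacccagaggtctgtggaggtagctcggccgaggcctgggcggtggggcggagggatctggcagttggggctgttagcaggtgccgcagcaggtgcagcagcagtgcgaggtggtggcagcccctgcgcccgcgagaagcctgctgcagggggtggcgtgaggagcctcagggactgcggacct
Stra8, chr6:34920698-34920997, plus strand: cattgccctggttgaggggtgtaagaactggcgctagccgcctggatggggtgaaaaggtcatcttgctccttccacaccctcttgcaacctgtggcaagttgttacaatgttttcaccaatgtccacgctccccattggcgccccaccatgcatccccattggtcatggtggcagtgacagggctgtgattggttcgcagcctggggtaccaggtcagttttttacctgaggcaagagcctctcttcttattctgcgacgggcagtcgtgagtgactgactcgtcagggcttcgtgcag
Fam50a, chrX:74312783-74313082, plus strand: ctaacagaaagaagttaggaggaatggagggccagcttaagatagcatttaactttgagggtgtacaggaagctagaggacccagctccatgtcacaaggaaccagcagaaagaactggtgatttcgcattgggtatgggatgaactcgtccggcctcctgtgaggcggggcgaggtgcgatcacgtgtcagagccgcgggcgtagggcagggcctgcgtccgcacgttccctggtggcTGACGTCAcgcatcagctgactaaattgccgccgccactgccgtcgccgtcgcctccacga
The Rfx2 window holds the GC box on both strands and CNCCTCAG on the reverse strand, the Piwil1 window the GC box, the Fam50a window the CREB palindrome and the Stra8 window none of the 3. Across genes with a promoter in the table, the GC box was present in 34.4% of the 12661 tested genes, 30.1% of the 1401 that fell and 24.4% of the 488 that rose. CNCCTCAG was present in 10.9%, 11.8% and 10.9% of the same groups, and TGACGTCA in 3.21%, 3.50% and 1.84%. Among lists the GC box was present in 58.8% of 17 pachytene genes, 33.3% of 21 genes of meiotic entry to zygotene, 4 of 21 piRNA pathway genes, 18.2% of 33 spliceosome genes and 26.7% of 15 Sertoli genes. Over all 32851 promoters of the table the shares were 17.6%, 7.94% and 1.79% for the GC box, CNCCTCAG and TGACGTCA. These are descriptions of letters in 1 window, and the groups were not tested against each other.

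Isozymes that germ cells use in place of somatic enzymes fell in 12 of 13 tested cases (median -2.27). Gk2, a glycerol kinase, went from 1741, 1544 and 620 counts in WT to 17, 3 and 22 in Xap5 cKO testes (-6.44), and Pgk2, the phosphoglycerate kinase of late germ cells, from 459, 268 and 119 to 8, 3 and 12 (-5.10). The glucose transporter gene Slc2a3 had 23613, 22381 and 9752 counts against 1715, 1857 and 1873 (-3.27), with the groups well apart. Respiratory subunits of the testis form, Cyct (-3.07), Cox8c (-2.94), Cox6b2 (-2.27) and Cox7b2 (-1.38), fell together. Gapdhs, the glyceraldehyde phosphate dehydrogenase of sperm, did not pass the test, with 171, 147 and 158 counts against 176, 145 and 154 (0.09). Of 14 germ-cell chaperones and heat-shock factors 8 fell (median -1.11). Cct6b, a chaperonin subunit of the testis, went from 1244, 1204 and 482 to 52, 55 and 50 counts (-4.13), and Clgn, the endoplasmic reticulum chaperone calmegin, from 13628, 15059 and 9152 to 940, 924 and 1660 (-3.33). The widely expressed Hsf1 (-0.24), Hsf2 (-0.29) and Hsph1 (-0.31) were below 2-fold. None of 7 tested germ-cell histone variants was called (median -0.17), although H2ax, the variant phosphorylated at DNA breaks, was lower by less than 2-fold (-0.61).

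Retrocopies offered a comparison within gene pairs. Several X-linked housekeeping genes have autosomal copies, made by reverse transcription, that are expressed in spermatocytes while the X chromosome is silent. Of 14 tested retrocopies 11 fell and none rose (median -1.42). Of their 15 X-linked parents none was called in either direction (median 0.40), and 9 passed the adjusted p in the higher direction without reaching 2-fold. Without WT replicate 3, 1 of them, Ubl4a (0.90 with all libraries), was called higher, and without Xap5 cKO replicate 2 Gk was called lower. In all 14 pairs the retrocopy had the lower log2 fold change. The values of a pair come from the same libraries, and reads could be shared between copies of near-identical sequence. Fam50b, itself a retrocopy of Fam50a, had 532, 539 and 197 counts in WT testes against 6, 0 and 7 in Xap5 cKO (-6.48). Cetn1, a centrin, went from 1498, 1275 and 451 to 17, 14 and 40 counts (-5.41), while its parent Cetn2 had 812, 834 and 946 against 1214, 1246 and 1333 (0.65). For the ribosomal protein pair, Rpl10l had 4258, 4662 and 3423 counts against 1534, 1792 and 2455 (-1.0003, not called under RLE size factors, library size alone or DESeq2), and Rpl10 had 5948, 5805 and 7586 against 10360, 10687 and 9097 (0.74). Gk was the parent with the lowest value (-0.95), followed by Fam50a (-0.33).

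**Figure D4:**
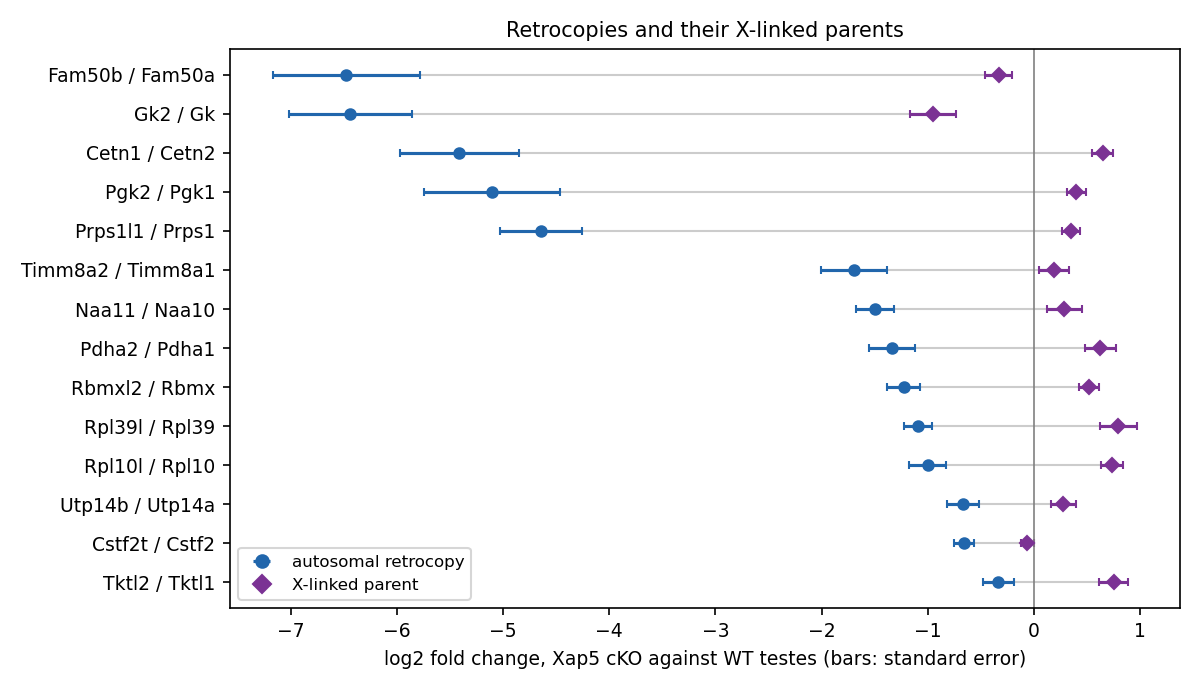
Log2 fold change in Xap5 cKO against WT testes (x axis) with its standard error (bars) for 14 pairs of an autosomal retrocopy (blue circles) and its X-linked parent (purple diamonds), 1 pair a row. The retrocopy lies below the parent in all 14 pairs.

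The sex chromosomes differed from the autosomes. Medians of the 19 autosomes lay between -0.12 and 0.08, and those of the X and Y chromosomes were 0.41 over 682 genes and 0.54 over 17. On the X chromosome 24 genes fell and 51 rose, shares of 3.52% and 7.48%, whereas on the autosomes between 8.41% and 13.3% fell and between 2.73% and 6.25% rose. These are counts of entries, and 126 of all calls were of numbered entries, which stand beside another of the same name. The X-linked calls hold Ccnb3-2 (log2 fold change 1.57) beside Ccnb3, and Tex13b-2 (-1.15) beside Tex13b. X-linked entries took 2.95%, 2.99% and 3.35% of counts in WT testes, against 4.15%, 4.10% and 4.17% in Xap5 cKO. WT replicate 3 was again the WT library nearest to the Xap5 cKO group. When libraries were scaled to the Sertoli cell list (below), the X chromosome median was -0.34, against -0.76 for all genes.

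Several X-linked genes rose far beyond their chromosome's median. They were picked after their values were seen, apart from those under the rule for the largest changes. They are not all of the rises of this size. Cfap47, for one, had 125, 117 and 277 counts in WT testes against 582, 575 and 864 in Xap5 cKO (log2 fold change 2.06). Gm5934 had 5, 0 and 0 counts in WT testes against 264, 420 and 488 in Xap5 cKO (log2 fold change 7.85), and 1700080O16Rik had 174, 208 and 224 against 2051, 2597 and 3730 (3.89, standard error 0.218). Gm9 went from 20, 43 and 57 to 167, 254 and 370 (2.82). Ccnb3, a cyclin expressed in early meiotic prophase, had 655, 605 and 515 counts against 1662, 1560 and 2535 (1.79), and Scml1, a germ-cell gene of the Polycomb-related SCML family, had 618, 682 and 752 against 1838, 1846 and 2829 (1.77). In these genes Xap5 cKO replicate 3 held the most counts. Members of 2 X-linked families expressed in germ cells were frequent, with 7 of 25 tested Rhox genes and 7 of 20 tested Mage genes higher. Rhox2d, Rhox2e, Mageb1 and Mageb17-ps were not called without WT replicate 3. Rhox10 fell, from 99, 68 and 82 to 42, 45 and 27 counts (-1.04), and was not called without that library either. Reads shared among similar copies make single members of these families uncertain. The X-linked genes that fell included Hs6st2, a heparan sulfate sulfotransferase, from 2682, 3248 and 3739 to 1183, 1137 and 1184 counts (-1.36), Radx, a protector of replication forks, from 550, 576 and 853 to 222, 139 and 184 (-1.75), and Tex11, a recombination gene, from 4412, 4904 and 5519 to 1784, 2049 and 2093 (-1.23). Of 8 tested genes of the Y-linked list, the 2 that rose were the zinc-finger genes Zfy1, from 363, 466 and 352 to 812, 683 and 1128 counts (1.25), and Zfy2, from 341, 368 and 310 to 679, 707 and 1279 (1.48). The median of this list was 0.54, and Uba1y, expressed in spermatogonia, was lower by less than 2-fold (-0.66).

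**Figure D5:**
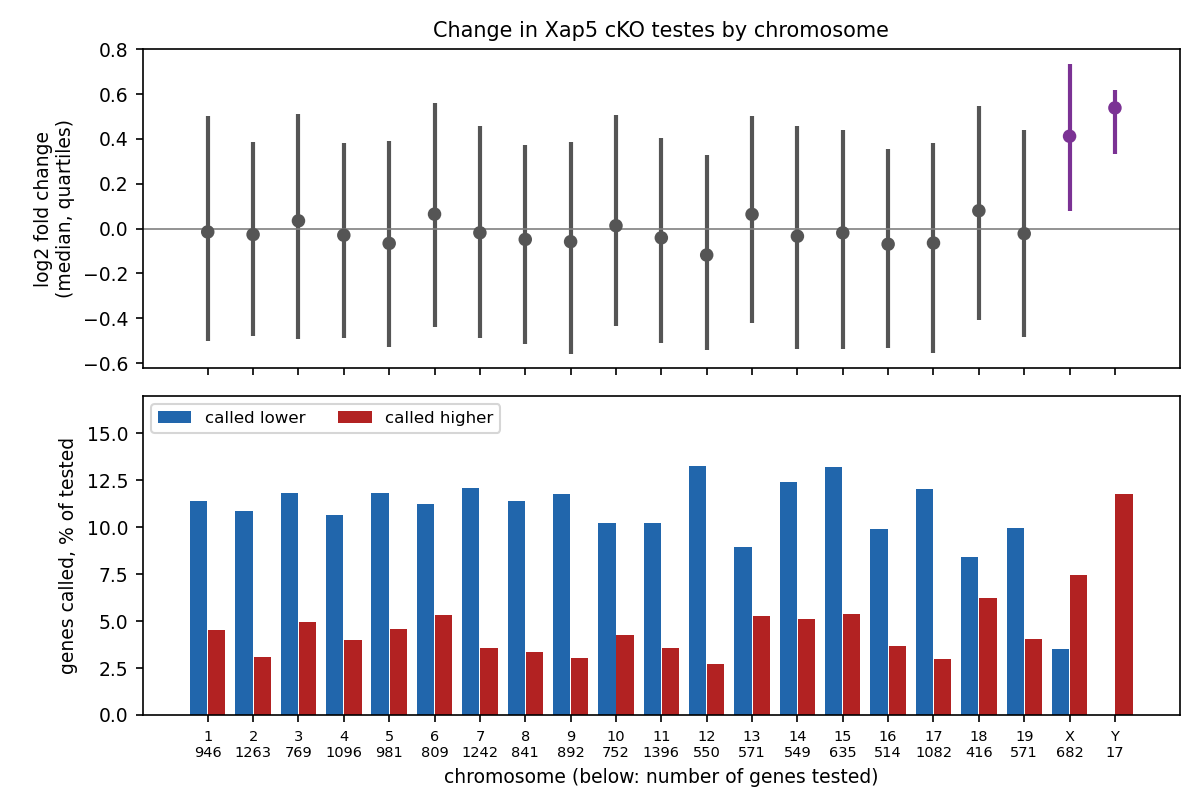
Upper panel, median (points) and quartiles (lines) of log2 fold change in Xap5 cKO against WT testes for the tested genes of each chromosome. Lower panel, percent of those genes called lower (blue bars) and higher (red bars), with the number tested under each chromosome. The X and Y medians of 0.41 and 0.54 lie above all 19 autosomes.

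Among 25 genes of the mitotic and meiotic cell cycle 8 fell and Ccnb3 rose (median -0.79). Ccna1, the cyclin of meiotic cells, had 224, 219 and 106 counts in WT testes against 30, 24 and 18 in Xap5 cKO (-2.83). Ccne2 (-1.86), Ccnb2 (-1.77) and the checkpoint kinase genes Ttk (-1.60) and Bub1 (-1.42) fell too. Mki67, the proliferation marker, had 7526, 8823 and 9537 counts against 4545, 4501 and 3506 (-0.94), just below the threshold, and Cdk1, the mitotic kinase, lay at -0.21. Of 20 DNA replication genes 6 fell (median -0.85), the most being Gins1, a subunit of the replicative helicase, from 1195, 1119 and 1053 to 255, 309 and 299 counts (-1.87). All Mcm genes of the helicase core were lower, with Mcm5 (-1.18) and Mcm3 (-1.01) called. Targets of p53, which respond to DNA damage, were spread around the median of all genes (0.25 over 20 genes, 1 lower and 2 higher). Pmaip1, a pro-apoptotic gene, went from 408, 527 and 638 to 886, 916 and 1426 counts (1.14) and Eda2r from 97, 142 and 128 to 205, 182 and 298 (1.004). Perp had 159, 106 and 140 counts against 48, 60 and 20 (-1.57). Without Xap5 cKO replicate 3 none of the list was called higher, and without WT replicate 3 there were 4. Bax (-0.06), Bbc3 (0.40) and Cdkn1a (-0.43) did not pass.

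Sertoli cell genes were higher as a group, mostly below 2-fold. Of 25 genes 23 passed the adjusted p in the higher direction, 22 had Xap5 cKO libraries all above the WT libraries (29.9% of all tested genes did), and 1, Amh, rose by more than 2-fold (median 0.70). The list summed to 8729, 9187 and 9082 CPM in WT testes against 14646, 14769 and 16227 CPM in Xap5 cKO, and Clu gave between 36.6% and 43.7% of that sum. Amh, the anti-Müllerian hormone of immature Sertoli cells, had 1956, 2530 and 2785 counts against 4446, 4902 and 5575 (log2 fold change 1.14, standard error 0.115). Fshr, the receptor for follicle-stimulating hormone, had 840, 983 and 771 against 1437, 1649 and 1684 (0.97). Sox9 (0.85), Inha (0.87) and Wt1 (0.54) lay in the same range. Ptgds was the exception, with 101, 83 and 95 counts against 32, 21 and 23 (-1.77), and Rhox5 (-0.36) had a low value only in Xap5 cKO replicate 3, at 46 counts. Because the data are relative, the same libraries were also scaled to equal sums of this list. The median of all genes then moved by -0.75, 33.9% of genes were lower and 0.410% higher, and the median of the Sertoli list, which this scaling holds near 0 by construction, was -0.06. Of the 69 genes still higher, all were also called on the main scale, which the shift of -0.75 nearly fixes in advance. On the X chromosome lay 10 (14.5%), against 7.31% of all genes called higher on the main scale and 4.05% of those tested.

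The lists of 5 other somatic cell types also had medians above that of all genes, but in part below 0 on the Sertoli scale, where the medians were 0.08 for Leydig cells, -0.32 for peritubular myoid cells, -0.23 for endothelial cells, 0.07 for interstitial stromal cells and 0.30 for macrophages. On the main scale 4 of 15 Leydig genes rose and 1 fell (median 0.84). Lhcgr, the receptor for luteinizing hormone, had 1120, 570 and 998 counts in WT testes against 2073, 2653 and 2508 in Xap5 cKO (1.51), and Insl3, the Leydig peptide for testis descent, had 3519, 2182 and 1604 against 5773, 6908 and 3414 (1.22), with overlapping groups. Steroid enzymes varied between libraries. Cyp17a1 had 1100, 584 and 1313 counts against 2389, 2515 and 327 (0.89, not called), the Xap5 cKO replicate 3 value being the lowest of all 6, and Star, which carries cholesterol into mitochondria, had 1159, 974 and 2991 against 3002, 5171 and 1514. Without Xap5 cKO replicate 3 the list held 8 higher genes, without WT replicate 2 it held 2. Hsd17b3, the last enzyme of testosterone synthesis, fell from 269, 237 and 341 to 173, 116 and 79 (-1.10), a call lost without WT replicate 3, Xap5 cKO replicate 2 or Xap5 cKO replicate 3.

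In the myoid list none of 10 genes was called (median 0.43), and Des, an intermediate filament gene of muscle, came nearest, with 603, 600 and 632 counts against 1117, 1064 and 1099 (0.93). Among 17 endothelial genes none rose and Erg, an endothelial transcription factor, fell from 205, 258 and 403 to 160, 119 and 121 (-1.01), a call lost under RLE size factors, in DESeq2, with the replicate block and without WT replicate 3, Xap5 cKO replicate 2 or Xap5 cKO replicate 3. Without WT replicate 3 Robo4, a receptor of vessel cells (0.83 with all libraries), was called higher instead, and Sox18, an endothelial transcription factor, was called higher without WT replicate 2 or Xap5 cKO replicate 1. The median of that list was 0.53. Stromal genes were uniform, with all 11 past the adjusted p in the higher direction and 3 called (median 0.82). Lum, a collagen-binding proteoglycan, had 164, 138 and 234 counts against 526, 421 and 312 (1.33), Dcn, of the same family, 7452, 6717 and 8222 against 14010, 14995 and 17526 (1.15), and Pdgfra 5924, 5294 and 7036 against 12424, 11595 and 11433 (1.05). Macrophage genes had the highest median of any cell list, 1.05, with 13 of 20 higher. Tyrobp, a signalling adaptor of myeloid cells, had 123, 120 and 100 counts against 255, 352 and 222 (1.36), and Csf1r, the receptor for the macrophage growth factor, 1097, 926 and 887 against 2261, 2565 and 1671 (1.25). The 3 genes of complement C1q, C1qa, C1qb and C1qc, lay between 0.99 and 1.11. Many of these calls sat close to 2-fold. Without WT replicate 3 the number was 6 and without Xap5 cKO replicate 2 it was 7. H2-Ab1 (-0.28) and Fcgr1 (-0.13) were not higher.

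Some markers of cells that should be rare were near the floor, and others were not. Of 9 lymphocyte genes 4 could be tested (median -0.70). Of these 1 fell, with the lowest log2 fold change of the list (-4.30). Ms4a1, a B-cell marker, had 2 or fewer counts in every library. Of 8 erythroid genes 6 were tested and none was called (median 0.40), although Xap5 cKO replicate 3 had the fewest counts of Hbb-bs, a beta globin, at 415 of a range up to 1296. Without that library 2 erythroid genes were higher. The epididymal markers Lcn5, Lcn8 and Crisp1 were at 0 throughout. Their list as a whole summed to 58.9, 63.3 and 60.8 CPM in WT testes against 79.0, 93.0 and 87.9 CPM in Xap5 cKO. Spint5 was the called member of that list, from 29, 16 and 21 to 9, 6 and 3 counts (-1.77), a call lost with any single library left out and in DESeq2.

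Signals from somatic cells to germ cells had a higher median than the Sertoli list, a difference that was not tested. Of 16 tested genes 6 rose and none fell (median 0.90 on the main scale, 0.15 on the Sertoli scale). Gdnf, the factor that maintains spermatogonial stem cells, had 302, 358 and 543 counts in WT testes against 1037, 907 and 1275 in Xap5 cKO (1.52, standard error 0.218). Fgf2, another growth factor for these cells, had 617, 603 and 696 against 1449, 1620 and 1936 (1.48), and Wnt5a had 764, 747 and 986 against 1744, 1617 and 2031 (1.21). In each of these the libraries of the genotypes were apart. Kitl, the ligand of the KIT receptor, went from 6391, 6866 and 8993 to 14682, 15334 and 14006 counts (1.08). The chemokine gene Cxcl12 (1.11) and the activin subunit gene Inhba (1.09) rose as well, but neither was called without WT replicate 2. Fgf9 (-0.15) and Nrg1 (0.60) did not pass the adjusted p. Without WT replicate 2 the number that rose was 4.

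Genes of the blood-testis barrier, the junctions between Sertoli cells, were shifted below 2-fold. Of 15 genes 11 passed the adjusted p in the higher direction and none was called higher (median 0.67 on the main scale, -0.08 on the Sertoli scale), while 3 were called without WT replicate 3. Jam2, a junctional adhesion molecule, had 4208, 4656 and 5499 counts against 8279, 8703 and 8899 (0.95), and Gja1, the gap junction protein connexin 43, had 7735, 8414 and 9676 against 15188, 15055 and 15876 (0.94). Tjp1 (0.13) and Cdh2 (0.06) did not pass. Nectin3, an adhesion protein on the germ-cell side of the Sertoli-spermatid contact, fell from 3724, 3539 and 2611 to 1260, 1395 and 1625 counts (-1.12), a call lost without WT replicate 1. Receptors and adaptors for the uptake of dying cells had a median of 0.71 over 16 genes on the main scale and of -0.04 on the Sertoli scale. The receptor tyrosine kinases Axl (0.87), Tyro3 (0.87) and Mertk (0.71) and their ligand gene Gas6 (0.72) passed the adjusted p below 2-fold. The scavenger receptor gene Stab1 rose from 1037, 848 and 710 to 2579, 2242 and 1438 counts (1.36), and its relative Stab2 fell from 379, 456 and 411 to 149, 166 and 148 (-1.33). Among 24 collagens and laminins of the matrix 21 passed the adjusted p in the higher direction, none was called (median 0.73 on the main scale, -0.02 on the Sertoli scale), and 3 were called higher without WT replicate 3. Lama2, a laminin chain, was nearest to the threshold, with 5150, 5328 and 6335 counts against 10283, 9998 and 10548 (0.97). Lama5 lay on the other side (-0.53).

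The retinoic acid pathway was divided between enzymes. Of 20 tested genes 5 fell and 1 rose (median -0.22). Aldh1a2, which makes retinoic acid in germ cells, had 4610, 5082 and 4760 counts in WT testes against 1712, 1642 and 2034 in Xap5 cKO (-1.33), whereas Aldh1a1, the form of Sertoli cells, had 29420, 25635 and 28892 against 48060, 49552 and 45853 (0.87). Lrat, which stores retinol as esters, fell from 332, 301 and 295 to 131, 62 and 83 counts (-1.65), and Stra6, a retinol transporter, from 1450, 1542 and 1513 to 660, 518 and 530 (-1.30). Dhrs3, which turns retinal back into retinol, was the gene that rose, from 419, 425 and 494 to 1226, 1017 and 864 (1.31). The binding protein genes Crabp1 (-1.17) and Rbp4 (-1.19) fell. The degrading enzyme gene Cyp26b1 passed the adjusted p below 2-fold (0.76), and among the receptors Rara lay at 0.65 and Rarg at -0.65, both past the adjusted p.

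Housekeeping machineries held few calls. Of 41 spliceosome genes 31 passed the adjusted p in the lower direction, against 28.1% of all tested genes. In 34 the Xap5 cKO libraries all lay below the WT libraries, against 32.4% of all tested genes, and in 1 all lay above. The median was -0.36, with a single call. Dhx16, a splicing helicase, had 2541, 2580 and 2880 counts against 1367, 1117 and 1205 (-1.02), a call lost without WT replicate 3 or Xap5 cKO replicate 2. Snrnp200, another helicase of the list, had 10492, 12565 and 11285 against 5659, 5363 and 6214 (-0.89), and Cdc40 was the member past the adjusted p in the other direction (0.39). The 81 tested cytosolic ribosomal protein genes were centred on 0.01. Their calls were Rpl3l, a muscle form, from 71, 95 and 76 to 20, 19 and 0 counts (-2.52), and Rps27a, which encodes a ubiquitin fusion, from 1805, 1809 and 2213 to 5310, 3925 and 4799 (1.37). Without WT replicate 3 the number called higher was 3, with Rps4x (0.94 with all libraries) and Rps28, which had 10, 93 and 771 counts in WT testes against 773, 1213 and 108 in Xap5 cKO. There was no call among 78 nuclear-encoded subunits of oxidative phosphorylation (median -0.17), or among 21 genes of cholesterol synthesis (median -0.05). The proteasome list had a median of -0.21 over 38 genes, and its call was Psma8, the alpha subunit of meiotic cells, from 7457, 7118 and 5056 to 896, 808 and 1197 counts (-2.67).

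Interferon response genes varied between the WT libraries. Of 17 genes 1 fell, Dhx58, a regulator of viral RNA sensing, from 289, 401 and 143 to 101, 91 and 67 counts (-1.59), and the median was -0.32. WT replicate 2 stood above all other libraries. Ifit1 had 28, 564 and 38 counts in WT testes against 43, 64 and 46 in Xap5 cKO, and Ifit3 had 121, 865 and 71 against 70, 147 and 42, with neither past the adjusted p. The number of genes that fell was 6 without WT replicate 3, 3 without WT replicate 1 and 1 without WT replicate 2.

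Among genes whose mean reached 5 CPM in WT or Xap5 cKO testes, the 10 largest falls were of genes with 0 counts in every Xap5 cKO library, which makes their folds lower bounds, set by a floor of 3 counts per library. Adam3, a sperm surface protein of the ADAM family, had 1697, 1369 and 223 counts in WT and was at least 346-fold lower. Odf4, an outer dense fibre protein of the tail, had 1156, 1069 and 465 counts and was at least 281-fold lower, and Daw1, an assembly factor for axonemal dynein, had 429, 457 and 250 and was at least 118-fold lower. The others were A26c3, Prdx6b, 1700074P13Rik, 1700029F12Rik, 4930544G11Rik, Slco6c1 and Cmtm2b, with bounds of at least 418, 247, 245, 241, 198, 171 and 149-fold. In all 10 WT replicate 3 had the fewest WT counts. In all, 55 of the genes that fell had no count in any Xap5 cKO library. Of the 10 largest rises, Gm5934, 1700080O16Rik and Gm9 lie on the X chromosome (above). Hrk, a pro-apoptotic BH3 gene, had 28, 53 and 62 counts in WT testes against 151, 160 and 343 in Xap5 cKO (2.30), and Cd83, an immune cell surface protein, had 31, 16 and 55 against 185, 148 and 174 (2.41). Rab27b, a GTPase of secretion, went from 22, 8 and 62 to 134, 154 and 290 (2.75), and Sel1l3 from 255, 392 and 511 to 1649, 1341 and 1903 (2.19). Cdh19, a cadherin, went from 34, 15 and 113 to 244, 216 and 361 (2.44) and A830018L16Rik from 38, 46 and 48 to 166, 225 and 309 (2.5003). Rps18-2 had 159, 217 and 277 counts against 1320, 751 and 1005 (2.35). It is 1 of 1609 numbered entries, which stand beside another entry of the same name, and it overlaps Vps52, so that its reads cannot be assigned with certainty.

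A further 10 genes that rose had 0 counts in every WT library. They were picked after their values were seen. Defb15, a beta-defensin, had 85, 121 and 162 counts in Xap5 cKO testes and was at least 43.6-fold higher. Cypt1, an X-linked spermatid gene, had 32, 33 and 54 and was at least 14.1-fold higher, and Flg, the epidermal protein filaggrin, had 22, 23 and 52 and was at least 11.5-fold higher. Rprm, a p53-dependent cell cycle inhibitor, had 13, 19 and 26 counts, at least 6.87-fold higher. Gm6590, Tnnc1, Olfr1, Slc22a29, Traf3ip3 and Rab17 had bounds between 3.80 and 7.38-fold, and none of them passed 26 counts in any library.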

How the data were processed

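Poly(A) RNA of whole testes from P16 mice was sequenced in 3 WT and 3 Xap5 cKO libraries, labelled as biological replicates. The deposited values are counts per gene entry, made by the authors from reads trimmed with Trimmomatic 0.36, checked with FastQC 0.11.2 and mapped to GRCm38/mm10 with HISAT2 2.1.0. The counting tool, the treatment of reads that map to several places and the use of strand are not given in the sources used here, so overlapping genes and near-identical copies may share reads. The study tested its counts with DESeq2 1.12.4.

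Here edgeR 4.0.16 in R 4.3.3 was used. Entries were kept by filterByExpr, libraries were scaled by TMM, and glmQLFit and glmQLFTest compared the genotypes over all 16821 kept entries, with adjustment by Benjamini-Hochberg. Calls required an adjusted p under 0.05 and a fold change above 2, and edgeR's fit gives every adjusted p in the text. CPM values are counts scaled to library size after TMM. Totals ranged from 32251198 to 36759054 counts. Folds against a group at 0 use a floor of 3 counts per library and cover counting error only. Of the 23502 entries, 22908 (97.5%) were matched by name to the annotation of GRCm38.p6 for chromosomes and overlaps. Genes named are the targeted gene and its relative, 19 genes taken from the study and members of 45 lists. The most changed called member of each list is included, except in the lymphocyte list. The 10 largest falls and rises among genes whose mean reached 5 CPM are named too. Others were chosen after their values were seen. The lists and genes were chosen with earlier results of these data known, so no list was tested as a set. The fit was tested on simulated counts. No pair of replicates agreed within sampling noise. The numbers of replicates did not pair the genotypes. Alternatives were other filters, scalings, thresholds, a replicate block, DESeq2 1.42.0 and each library left out. The p-values set the difference between genotypes against the spread between these libraries, which edgeR moderates across genes. A few genes of the lists are not reported here.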

Additional observations from a re-analysis of the deposited data

How the results depend on the processing

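The test as described above called 1837 genes lower and 698 higher. Scaling to the Sertoli cell list gave 5704 and 69, glmTreat against a fold change of 2 gave 947 and 66, and the adjusted p with no fold threshold gave 4734 and 4202. In glmTreat and with no fold threshold the other counts follow from the rule itself, and the Sertoli scaling moves the centre of all genes by -0.75. With 1 library left out, between 1687 and 1955 genes were lower and between 559 and 884 higher, the upper bounds without WT replicate 3. All other alternatives stayed within 1.5 times of these counts, with 1867 and 733 in DESeq2 and 1782 and 661 with the replicate block. Same-numbered libraries of the genotypes did not deviate together (correlations of 8.1e-05, -0.0376 and -0.0452), so the block adds only a number. Among 234 called list members, study genes or largest changes, 104 lost their call under at least 1 alternative that tested them. All 104 did so under glmTreat, 40 with a library left out, 6 in DESeq2 and 4 with the replicate block. The 104 do not count removal by the filter of at least 10 counts in every library. Under that filter the round spermatid list held 6 lower genes, against 9 in the main fit. None of the list members, study genes or largest changes changed sign except on the unshifted Sertoli scale. There 95 of 191 with values above 0, called or not, had values below 0. The lists with no call by edgeR (myoid, erythroid, X-linked parents, histone variants, cholesterol, collagens and laminins, oxidative phosphorylation) also had 0 calls in DESeq2 and at an unadjusted p under 0.05 with the same fold threshold. The X chromosome counts under the alternatives were added after the data were seen, and between 43 and 68 X-linked genes were higher with a library left out. The study has 3 libraries a group, so a call near 2-fold can turn on 1 library.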

Other observations

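A few further genes rest on single libraries, and they are members of the spliceosome, p53 target and DNA replication lists above. Snrpc, a U1 snRNP protein, had 76, 591 and 1263 counts in WT testes against 729, 23 and 917 in Xap5 cKO. Btg2, an antiproliferative gene, had 1006, 1121 and 3028 counts against 2806, 2239 and 1948. Cdc45, a replication factor, had 264, 247 and 762 against 199, 191 and 289. These were chosen after their values were seen, and none passed the adjusted p of edgeR's quasi-likelihood test.

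Outside the lists, 2 genes that rose were also picked after their values were seen. Hsd17b1, an enzyme of estradiol synthesis, went from 71, 61 and 93 to 264, 234 and 310 counts (log2 fold change 1.94), and Atf3, a stress-induced transcription factor, went from 88, 111 and 106 to 327, 297 and 343 (1.76). In both genes the genotypes did not overlap.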
